A study of Mus musculus with 3 samples.

Results

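Peaks of the forkhead transcription factor Foxd3 were examined at 4 genes of the leukaemia inhibitory factor (LIF) pathway in mouse embryonic stem cells: Lifr, Il6st, Stat3 and Socs3. The peaks were selected by position, as every entry of the deposited lists that overlapped a fixed mm9 window around each gene, and the 4 windows were picked with the peaks already known. The windows ran from 6.98 to 7.25 Mb of chromosome 15 for Lifr, 113.15 to 113.4 Mb of chromosome 13 for Il6st, 100.65 to 100.9 Mb of chromosome 11 for Stat3 and 117.73 to 117.93 Mb of chromosome 11 for Socs3, 970 kb in all. They held 13 of the 7975 listed peaks, 5 of the 3406 in the HA list and 8 of the 4569 in the Flag list.

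All libraries came from 1 line, FH-Foxd3, made by transducing LF2 embryonic stem cells with a pTrip lentivirus that carries Foxd3 with a Flag and an HA tag, and by selecting with neomycin. The antibodies therefore pull the added, tagged protein, whose level the study's design text puts close to that of the endogenous one, and not the endogenous protein itself. Cells were kept without feeders in KO-DMEM with serum and LIF, so every sample had the ligand of the pathway in its medium. One chromatin immunoprecipitation used anti-HA, 1 used anti-Flag, and 1 input of total genomic DNA was not analysed here. The title of the series places the work in the exit from naive pluripotency.

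LIF binds the receptor subunit Lifr, which pairs with gp130, the shared signalling subunit encoded by Il6st. Janus kinases bound to these receptors then phosphorylate the transcription factor Stat3, which enters the nucleus and activates its targets. Socs3 is one of those targets and feeds back by binding gp130 and the kinases and inhibiting them. Mouse embryonic stem cells grown in serum depend on this pathway for self-renewal.

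At 2 of the 4 genes, a listed peak lay so close to the approximate gene position that the promoter is of interest, and the 250 bases ahead of the RefSeq start are shown for those genes (GRCm38.p6, 5′ to 3′ on the gene's strand). For Il6st they are chr13:112463820-112464069 on the plus strand, and for Socs3 chr11:117969367-117969616 on the minus strand. Capitals mark a match to the STAT element TTCNNNGAA, which reads the same on both strands. The peaks are in mm9, so they were not placed on these sequences.
Il6st: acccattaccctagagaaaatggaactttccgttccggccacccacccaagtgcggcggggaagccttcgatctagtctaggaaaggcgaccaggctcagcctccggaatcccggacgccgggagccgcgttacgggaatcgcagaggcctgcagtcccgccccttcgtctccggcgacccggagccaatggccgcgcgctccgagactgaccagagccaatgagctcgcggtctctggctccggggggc
Socs3: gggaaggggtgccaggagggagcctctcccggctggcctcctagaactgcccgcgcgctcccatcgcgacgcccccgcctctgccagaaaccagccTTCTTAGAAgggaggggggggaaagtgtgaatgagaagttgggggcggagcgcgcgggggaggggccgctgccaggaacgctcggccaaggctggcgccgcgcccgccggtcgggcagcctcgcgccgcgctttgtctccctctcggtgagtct

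The Socs3 sequence held 1 STAT element, TTCTTAGAA, from 154 to 146 bases before the start. Across the 32817 RefSeq promoter entries of this length, 7.01% had such an element. The Il6st, Stat3 and 2 Lifr entries had none in these letters. The forkhead sequences TGTTTAC and TGTTTGT, searched on both strands, were not found in the 250 bases of any of the 5 entries, against 3.16% and 5.84% of promoters with a match. Both printed promoters were rich in CG pairs, with 26 each, where the median promoter had 6. This was not particular to them: 1 Lifr entry had 43, the other 3, and Stat3 had 13. G and C made up 66.0% of the Il6st and 71.6% of the Socs3 sequence, against a median of 52.4%. In the same Lifr entries they made up 82.4% and 50.8%, and at Stat3 60.8%.

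Each of the 4 windows held exactly 1 site listed with both antibodies, and the remaining 5 peaks were listed with 1 antibody only. Sites were called shared when an HA and a Flag peak overlapped by at least 1 bp. Of the 5 HA peaks 4 were shared, or 80.0% (exact 95% binomial interval 28.4 to 99.5%), and over the whole HA list the share was 73.3%. Of the 8 Flag peaks 4 were shared, or 50% (15.7 to 84.3%), and over the whole Flag list it was 54.7%. The intervals cover counting error only, and with so few peaks they are wide. That both whole-list shares lie inside them therefore shows little. The lists carry positions without heights, so a peak missing from one of them may lie just below that library's threshold.

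The windows had more peaks per length than the lists at large, and they had been chosen with those peaks known. There were 0.515 HA and 0.825 Flag peaks per 100 kb, compared with 0.130 and 0.175 over the chromosomes as a whole. When the chromosomes were divided into 10462 tiles of 250 kb, 18.0% held a shared HA peak, and 6.22% held 2 or more HA peaks. For Flag, 9.69% of the tiles held 2 or more peaks. Among the windows, Il6st held 2 HA peaks and the others 1 each. Lifr, Stat3 and Socs3 held 2, 2 and 3 Flag peaks, and Il6st held 1. No comparison between windows and tiles was tested, and each antibody had 1 library.

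**Figure D1:**
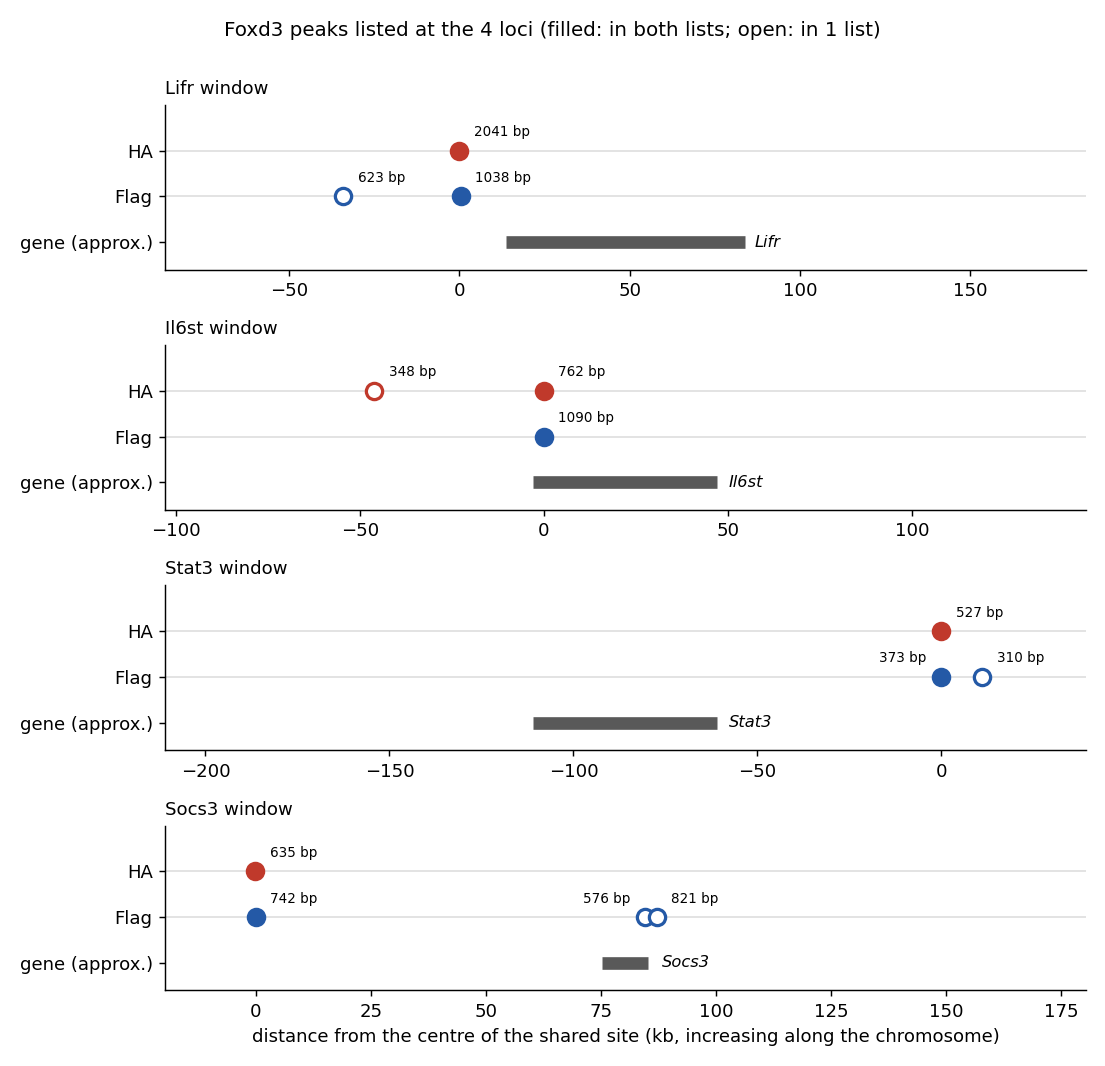
Listed peaks in the 4 windows. The horizontal axis is the distance in kb from the centre of each window's shared site, and points are HA (red) or Flag (blue) peaks labelled with their widths, filled where both lists have the site and open where 1 does. Grey bars are the rounded gene positions, each end rounded by up to 5 kb (for Socs3 the bar is that rounding). The RefSeq Lifr model of 107 kb is longer than its bar, so the gene may reach beyond it. Each window has 1 filled pair, at the Il6st bar's left end, 13.8 kb from the Lifr bar and more than 60 kb from the Stat3 and Socs3 positions.

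At Lifr, the ligand-binding receptor subunit, the shared site was among the widest of the HA list. The HA peak ran from 7065191 to 7067231 on chromosome 15, a width of 2041 bp, and ranked 3 of 3406. The Flag peak ran from 7066129 to 7067166, a width of 1038 bp, and ranked 267 of 4569. The peaks ended within 65 bp of each other but started 938 bp apart, so the Flag peak filled the right-hand part of the HA peak and covered 50.9% of it. Among the 2474 pairs of 1 HA and 1 Flag peak, 5 had a larger excess of HA over Flag width than the 1003 bp seen here, and 59 (2.38%) had an HA peak at least as many times wider (1.97). Their centres were 436.5 bp apart, and 98.7% of pairs had closer centres.

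The 3 widest HA peaks all met a single, narrower Flag peak. The widest, of 2121 bp, had a Flag partner of 1095 bp, and the second, of 2056 bp, had one of 1410 bp. A narrower Flag partner was therefore not limited to Lifr among these 3. They were picked for HA width, which by itself makes a narrower partner likely, so this does not bear on the antibodies.

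The centre of the Lifr HA peak lay 13.8 kb before the approximate start of the gene at 7.08 Mb. That start is rounded to 0.01 Mb, and this rounding alone gives the distance an uncertainty of 5 kb. In RefSeq the Lifr gene model spans 107 kb on GRCm38.p6, more than the interval of 7.08 to 7.15 Mb, and no mm9 annotation was used, so whether the site lies ahead of the transcribed unit or in an intron of its longest form was not determined. A second Flag peak of 623 bp (7031871 to 7032493) lay 34.2 kb from the shared site, further from the gene, with no HA peak within 32.7 kb. No peak of either list lay on the approximate gene interval. Past the shared site the HA list had no entry for 1.72 Mb, longer than 87.9% of the stretches between its neighbouring peaks, and the Flag list also had none for 1.72 Mb. The gene that precedes Lifr in RefSeq is Osmr, the oncostatin M receptor subunit, and the one that follows is Egflam.

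At Il6st, which encodes gp130, the shared site coincided with the approximate start of the gene. The HA peak spanned 113252420 to 113253181 on chromosome 13, a width of 762 bp. The Flag peak spanned 113252284 to 113253373, a width of 1090 bp, and contained the HA peak entirely. Their centres were 28 bp apart, the closest of the 4 pairs, and 30.1% of all pairs were closer still. The Flag peak was wider than 95.1% of its list and the HA peak than 79.5%. Both centres lay 2.8 kb past the stated start at 113.25 Mb, inside its rounding of 5 kb, so the site may lie just before or just after the true start. It is the only one of the 4 shared sites within that distance of the approximate gene interval used here.

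The Il6st window also held the only HA-only peak of the 4 loci. It was 348 bp wide (113206578 to 113206925), wider than 10.3% of HA peaks, and lay 46.1 kb from the shared site on the side away from the gene. The window was picked with its shared site known, so a short distance to a Flag peak follows largely from that choice. The nearest Flag peak was 45.4 kb away, where the median HA-only peak was 88.9 kb from a Flag peak. These peaks followed a long empty stretch: no HA peak was listed in the 2.64 Mb before them and no Flag peak in the 2.68 Mb before the shared site, longer than 94.0% and 95.9% of such stretches. In RefSeq, Il6st is preceded by Ankrd55 and followed by Il31ra, a cytokine receptor gene of the same family.

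At Stat3, the transcription factor of the pathway, no peak lay on the gene itself. The first 210.6 kb of the window, up to 100860601 on chromosome 11, had no entry in either list, and this stretch contains the whole approximate gene interval of 100.75 to 100.80 Mb. The shared site lay 60.9 kb past the interval. Stat3 is on the minus strand in RefSeq, so this is the side of its promoter. The HA peak there was 527 bp wide (100860602 to 100861128) and the Flag peak 373 bp (100860615 to 100860987). The Flag peak lay entirely inside the HA peak, with starts 13 bp and centres 64 bp apart.

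The Stat3 peaks were the narrowest shared pair of the 4. The HA peak was wider than 46.3% of its list and the Flag peak than 25.5%. A Flag-only peak of 310 bp (100871741 to 100872050) lay 11.1 kb further on, the narrowest of the 13 peaks and the closest of the unshared ones to an HA peak, at 10.6 kb. RefSeq places Cavin1, Atp6v0a1 and Naglu next to Stat3 on this side, and Stat5a and Stat5b, which encode related transcription factors, on the other. No peak was assigned to any of them, since the positions of these genes in mm9 were not used here.

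At Socs3, the feedback inhibitor, the peaks near the gene were listed with Flag alone. They were 576 bp (117833986 to 117834561) and 821 bp wide (117836386 to 117837206), 1824 bp apart. Only 2.90% of neighbouring Flag peaks were closer to each other. Their centres lay 4.27 and 6.80 kb from the approximate position at 117.83 Mb, which is itself rounded by 5 kb. Socs3 is on the minus strand in RefSeq, so higher coordinates are on its promoter side. The 821 bp peak was wider than 86.3% of the Flag list, and no HA peak lay within 84.1 kb of either. The median Flag-only peak of the whole list was 155 kb from an HA peak, further than any Flag-only peak of these loci. Each window held an HA peak and was picked with it known, so shorter distances follow largely from that choice. The comparison therefore cannot show a trait of these loci.

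The shared site of the Socs3 window lay 80.5 kb from the gene position, on the other side. Its HA peak was 635 bp wide (117749208 to 117749842) and its Flag peak 742 bp (117749323 to 117750064). It is the only one of the 4 pairs in which neither peak contained the other: the Flag peak was displaced towards higher coordinates by 115 bp at its start and 222 bp at its end. The centres were 168.5 bp apart, further than in 89.8% of pairs. RefSeq lists Tha1, Tmem235 and Birc5 next to Socs3 on this side and Pgs1 on the other.

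**Figure D2:**
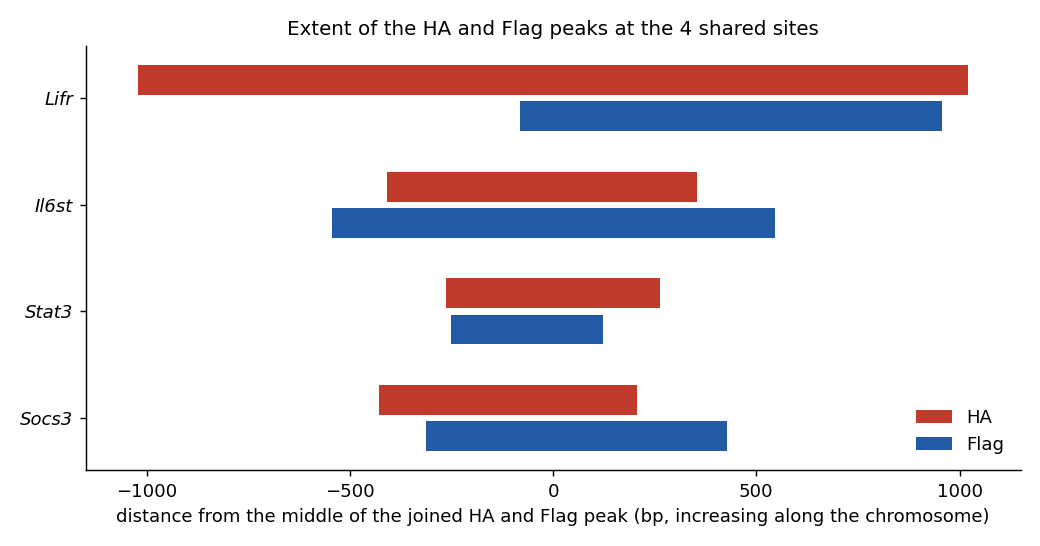
Extent of the HA (red) and Flag (blue) peak at each shared site, in bp from the middle of the stretch that the 2 peaks cover together. At Lifr the HA peak extends 938 bp further to the left, at Il6st the Flag peak contains the HA peak, at Stat3 the HA peak contains the Flag peak, and at Socs3 they are offset.

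The antibodies did not differ in 1 direction in peak width at the 4 shared sites. The HA peak was the wider at Lifr (by 1003 bp) and Stat3 (by 154 bp), and the Flag peak at Il6st (by 328 bp) and Socs3 (by 107 bp). Of all 2474 pairs, 132 had a larger excess of Flag over HA width than Il6st, and 580 a larger one than Socs3. The part of the joined stretch that both peaks covered was 50.9% at Lifr, 60.7% at Socs3, 69.9% at Il6st and 70.8% at Stat3. Each was below the median of 76.4% over all pairs. In the same order, 6.71%, 16.4%, 33.4% and 35.6% of pairs had a smaller part, so Il6st and Stat3 were not unusual. The median distance between centres was 116.25 bp in the 4 pairs and 50.5 bp in all pairs. The 4 distances were 28 bp at Il6st, 64 bp at Stat3, 168.5 bp at Socs3 and 436.5 bp at Lifr.

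**Figure D3:**
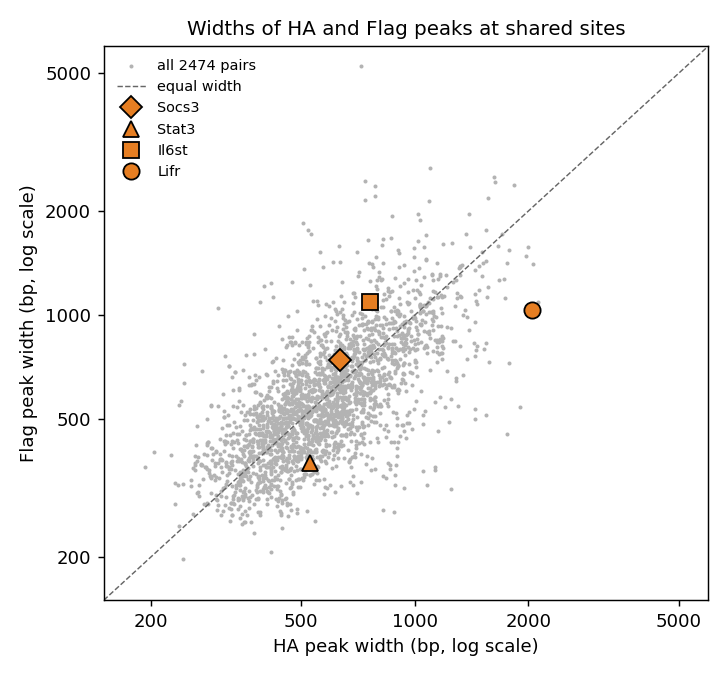
HA against Flag peak width (bp, log scales) for all 2474 pairs of 1 HA and 1 Flag peak (grey) and the 4 shared sites (orange). Lifr, at 2041 and 1038 bp, sits at the right edge below the line of equal width, and the other 3 sites lie within the main cloud.

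Peaks at the 4 loci included both narrow and wide members of each list. The HA peaks measured 348, 527, 635, 762 and 2041 bp, with a median of 635 bp against 547 bp for the list, and 3 of 5 exceeded the list's median. The Flag peaks ran from 310 to 1090 bp, with a median of 682.5 bp against 490 bp, and 6 of 8 exceeded the list's median. The 2 Flag peaks below it were both at Stat3. In the Flag list the shared members had a median of 890 bp and the unshared a median of 599.5 bp, compared with 548 and 407 bp over the list. The groups overlapped, since the shared Flag peak at Stat3 (373 bp) was narrower than the Flag-only peaks at Lifr and Socs3.

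**Figure D4:**
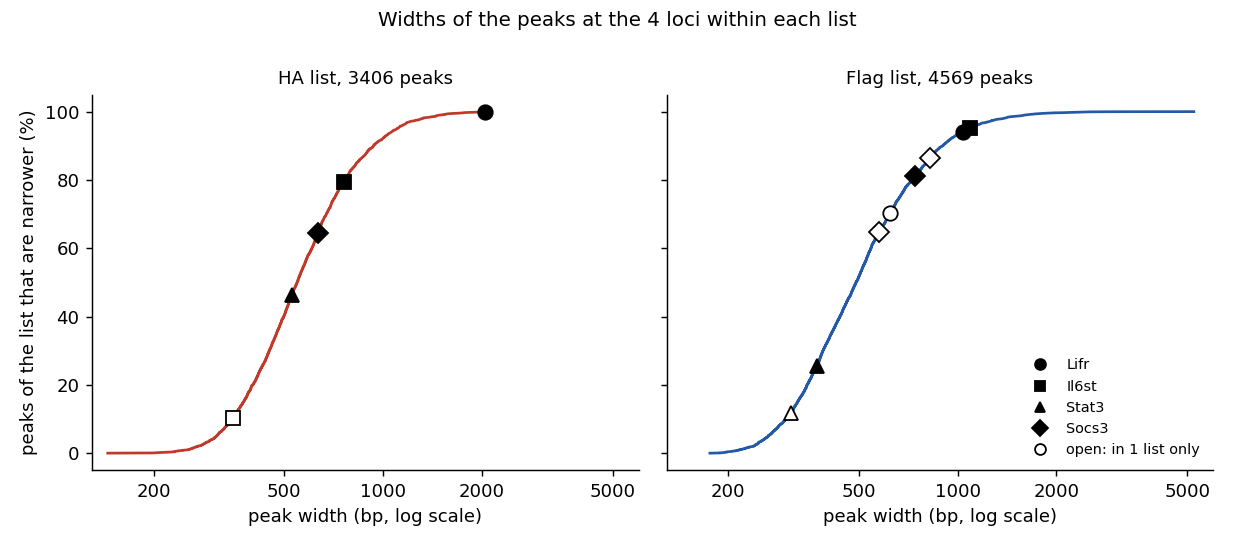
Width of each peak at the 4 loci (bp, log scale) against the percentage of its list that is narrower, on the cumulative curve of all HA peaks (left) and all Flag peaks (right). Filled marks are shared and open marks are listed once. The Lifr HA peak lies at the top of its curve, and the Stat3 peaks lie below the middle of both.

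The order of lines in the files, whose meaning is not stated, separated shared from unshared peaks at these loci. The shared HA peaks stood on lines 471 (Socs3), 894 (Stat3), 1269 (Lifr) and 1271 (Il6st), and the HA-only peak on line 2605. In the Flag list the shared peaks stood on lines 742 (Stat3), 787 (Socs3), 824 (Lifr) and 1125 (Il6st). The Flag-only peaks stood on lines 2373 and 3422 (Socs3), 2910 (Lifr) and 3016 (Stat3). Over the whole lists the median line was 1323.5 for shared and 2570.5 for HA-only peaks, and 1866 and 2873.5 for Flag. The order of widths was different: the widest HA peak of the loci, at Lifr, came after the narrower ones at Stat3 and Socs3.

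The nearest peaks outside the windows were shared sites too, with 1 exception. The closest HA peaks lay 401 kb below and 1534 kb above the Lifr window, 2582 and 160 kb from the Il6st window, 229 and 269 kb from the Stat3 window, and 269.7 and 394 kb from the Socs3 window. All 8 were shared with Flag, where 73.3% of the whole HA list and 54.7% of the whole Flag list were shared. The nearest Flag peaks were the partners of these HA peaks, apart from the exception, so they are not separate sites. The exception was a 292 bp Flag-only peak (100979445 to 100979736) that lay 79.4 kb above the Stat3 window. The choice of window edges thus left out no peak within 79 kb of them.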

How the data were processed

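Each antibody has 1 deposited list of peaks. A test of both files found 3 columns, the chromosome, start and end in base pairs, with no height, fold, p-value or count, so depth is unknown. Per the submitters' processing notes, positions are in mm9. The sources used here do not give the aligner, the peak caller, its threshold or how the input was used. Starts were converted to 1-based positions.

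Member peaks overlapped a window by at least 1 bp. The members and lists were chosen with earlier results of these data known, and named genes are the 4 loci and up to 3 protein-coding neighbours on each side by name, from RefSeq (GRCm38.p6). Gene positions in mm9 are the approximate ones that defined the windows. The planned list of other pathway genes and the distances to annotated starts were not run, since they need an mm9 annotation. Promoters and motifs come from RefSeq's 250 bases before each start. Chromosomes were counted up to the last peak of either list. With 1 library per antibody no test was made. Overlaps matched those of bedtools 2.31.1, and the code was tested on simulated data with planted overlaps. Python 3.11.15, numpy 2.4.6, pandas 2.3.3, scipy 1.17.1 and matplotlib 3.10.9 were used. The alternatives varied the overlap, the windows and the peaks kept.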

Additional observations from a re-analysis of the deposited data

How the results depend on the processing

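Of 44 alternative values, 34 stayed within 1.5 times the reported count, 1 SD of the widths or the interval of the share. Keeping the wider 50% of each list left 3 HA peaks, all shared (100%), 6 Flag peaks, of which 50% were shared as before, and no peak of either list at Stat3. Shortening each window by 50 kb on both sides left 3 HA and 5 Flag peaks, with none at Stat3 and no HA peak at Socs3. Fewer peaks remain by construction in both settings. Asking for 50% of each peak, or allowing a gap of 1000 bp, moved neither share beyond its interval. No paired analysis was possible because the lists come from 1 library of each kind, and no replicate could be left out. Depth is unknown, so signal under the authors' threshold has no known limit.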
